A study of Homo sapiens with 22 samples.

Results

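Huh7 cells, a line from a human hepatocellular carcinoma, were given an siRNA against COP1 or a negative control siRNA, and the RNA levels of both groups were compared across genes. The members are the 6 Huh7 arrays out of 22 in the series, 3 labelled COP1 siRNA (replicates 1 to 3) and 3 labelled Negative Control siRNA (replicates 1 to 3), chosen by line and siRNA alone. Both groups were transfected at 15 nM for 48 h in DMEM/F-12 with serum, and total RNA was hybridized to Illumina HumanRef-8 v3 beadchips, on which each probe reports 1 transcript region. The other 16 arrays, 8 of HepG2 and 8 of Hep3B, were used only for normalization, the background threshold, 1 comparison between lines and some alternative settings. Only 1 COP1 siRNA is named in the design, so its effects on other transcripts cannot be told apart from those of lower COP1. Huh7 is 1 established line and carries a mutant p53. Nothing in the labels says whether the replicates were separate cultures, so all p-values measure the spread between these arrays, which may be technical. The labelled cell type was checked against marker genes: all 14 hepatocyte markers on the array were above background on all 6 arrays, among them ALB, AFP, TTR and FOXA2.

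COP1 attaches ubiquitin to other proteins through a RING domain, as an E3 ligase. Pseudokinases of the Tribbles family carry C/EBP transcription factors to it, and DET1 joins it to a cullin ring ligase that marks JUN and ETS factors of the PEA3 group (ETV1, ETV4 and ETV5) for degradation by the proteasome. It also ubiquitinates p53, and in liver it is known for acting on regulators of glucose and lipid metabolism. These are effects on proteins, while the arrays report RNA.

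Each value is the deposited bead intensity, and differences are log2 fold changes of COP1 siRNA over control siRNA after an offset of 50, which understates the change of dim genes. A gene with several probes is represented by the brightest of them on average, and probes without a gene name were kept, which gave 10831 features, 9720 of them named. A gene counts as changed at a limma adjusted p under 0.05, by Benjamini-Hochberg over all 10831. The median intensity was 24.3 to 24.5 on every array and an intensity over 21.8 counted as above background. COP1 siRNA replicate 3 stood apart: the root mean square of its deviations from the group's mean was 0.46 on the log2 scale, against 0.30 and 0.23 for replicates 1 and 2 and 0.14 to 0.16 for the control arrays. Replicates 1 and 2 correlated at 0.991 across features, and replicate 3 with them at 0.920 and 0.936. Results are therefore also given without replicate 3, with 2 arrays against 3.

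The knockdown itself was seen on every array. COP1 (probe ILMN_1661002; gene at chr1:175944831-176207286 in GRCh38.p14) had intensities of 269.5, 302 and 265 on COP1 siRNA arrays 1 to 3 and of 1765, 1966 and 1671 on control arrays 1 to 3. The groups were far apart and replicate 3 lay with the other COP1 siRNA arrays. The log2 fold change was -2.40 ± 0.15 (SE, n = 3 and 3; limma adjusted p = 0.00069), and the COP1 siRNA arrays held 15.5% of the control intensity. A second COP1 probe fell by 2.07 ± 0.15, and the third was above background on 0 of 6 arrays. Without replicate 3 the main probe's log2 fold change was -2.38.

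Across all features, 1332 changed, which is 12.3% of those tested: 571 were higher (5.27%) and 761 lower (7.03%). The median log2 fold change over all features was 0.02. Of the changed features 1210 were named, and 552 changed by more than 1 on the log2 scale, 197 higher and 355 lower. The 3 COP1 siRNA arrays lay entirely on one side of the 3 control arrays for 39.6% of all features, 20.6% higher and 19% lower, so such a separation alone is common here. Without replicate 3, 3289 features changed (30.4%; 14.9% higher and 15.4% lower), all 1332 among them, and the median residual SD fell from 0.247 to 0.155. Without control replicate 1, 2 or 3 the count was 189, 202 and 170, and without COP1 siRNA replicate 2 it was 396. Those calls were all among the 1332. The count without COP1 siRNA replicate 1 was 1429. List counts below are to be read against the count over all features in the same fit. The lists were chosen with earlier results of these data known, which can favour lists with many changed members. Some genes belong to several lists, so the lists are not independent of each other. Their shares are a description.

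**Figure D1:**
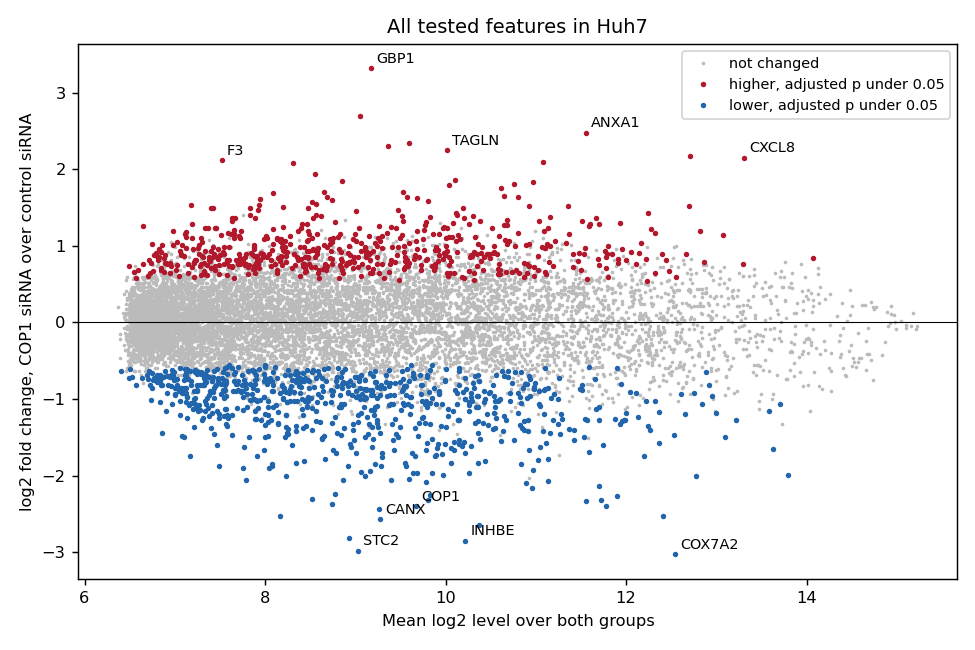
Log2 fold change of COP1 siRNA over control siRNA (y axis) against the mean log2 level (x axis) for the 10831 features tested in Huh7, with the 571 higher features in red, the 761 lower in blue and the rest in grey. The largest rise is GBP1 at 3.32 and the largest fall is COX7A2 at -3.03.

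Among the largest rises were an interferon-induced GTPase, a chemokine, and several genes of the membrane and the actin cytoskeleton. GBP1, the interferon-induced GTPase (chr1:89052319-89065208 in GRCh38.p14), had intensities of 1426, 1895 and 1967 after COP1 siRNA and 121, 100.3 and 103 after control siRNA. All 3 COP1 siRNA arrays were far brighter than every control, and the log2 fold change was 3.32 ± 0.18 (limma adjusted p = 0.00058). ANXA1, a phospholipid-binding annexin, read 6196, 5608 and 9957 against 1303, 1459 and 906 (log2 fold change 2.48 ± 0.27, adjusted p = 0.0024). OLR1, a receptor for oxidized low-density lipoprotein, read 1226, 1417 and 2675 against 268, 260.3 and 276. PCDH7, a protocadherin, read 1238, 1191 and 1777 against 209, 243 and 211, and its log2 fold change was 2.30 ± 0.19. For OLR1 the change was 2.35 ± 0.27, of which 2.02 remained without replicate 3, the brightest array.

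CXCL8, a chemokine that attracts neutrophils, was bright in control cells at 4492, 5263 and 4454.5 and rose to 16198, 20105 and 29530 (log2 fold change 2.15 ± 0.23, limma adjusted p = 0.0025). LCP1, the actin-bundling L-plastin, rose by 2.18 ± 0.27 and TAGLN, the actin-binding transgelin, rose by 2.25 ± 0.34. They differed in replicate 3. LCP1 was highest there, at 22309 against 11305 on both other arrays, while TAGLN was lowest there, at 1255 against 3279.5 and 2493, with controls at 296 to 466. F3, tissue factor, the initiator of coagulation, was not above background on any control array (18.4, 15.3 and 5.42) and read 235, 257 and 463 after COP1 siRNA, which is at least 3.93-fold higher. GADD45A, a growth arrest and stress gene, changed evenly, from 949 to 985 on the control arrays to 4089, 4539 and 4586 (log2 fold change 2.09 ± 0.15). TNFRSF9, a co-stimulatory receptor of the tumor necrosis factor receptor family, rose by 1.94 ± 0.17, GLIPR1 by 2.08 ± 0.25, SGK1, a kinase induced by serum and glucocorticoids, by 1.84 ± 0.27, and MYOF, a membrane repair protein, by 1.81 ± 0.32. ZNF789, a zinc finger gene, had a rise of 1.85 ± 0.17 by its brightest probe, while the others gave 0.64 and 0.44 (adjusted p = 0.037 and 0.11). CAPRIN1, an RNA-binding protein of stress granules, rose by 1.86 ± 0.27 on its main probe, but its other probes had log2 fold changes of 0.74 (adjusted p = 0.13) and 0.057 (adjusted p = 0.84).

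The largest falls named a subunit of the respiratory chain, stress-response and secreted liver genes, and the ETS factor ETV4. STC2, a secreted glycoprotein known to inhibit the protease PAPPA (chr5:173314723-173328414), had intensities of 116, 127 and 91.1 after COP1 siRNA and 1821.5, 1279 and 1142 after control siRNA. Each COP1 siRNA array was far below the lowest control, and the log2 fold change was -2.98 ± 0.20 (limma adjusted p = 0.00074). INHBE, the activin E subunit made by the liver (chr12:57455307-57458025), read 444, 426 and 256 against 3229, 3023 and 3095 (-2.85 ± 0.20). ETV4, a PEA3 factor and COP1 substrate as a protein, read 115, 121 and 103 against 831, 908 and 954 (-2.37 ± 0.15). CXCL16, a membrane-bound chemokine, read 1322, 1340.0 and 1146 against 6351, 6760 and 6961 (-2.33 ± 0.15). In these 4 genes replicate 3 was the lowest COP1 siRNA array. The groups did not overlap, which the choice of the largest falls required.

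CANX, the calnexin chaperone of the endoplasmic reticulum, read 132, 158 and 261 against 1626, 1448.5 and 1246 (log2 fold change -2.57 ± 0.22), and CTDSPL, a small phosphatase, read 454, 378 and 555 against 3005, 3338 and 3374 (-2.64 ± 0.18). NQO1, a quinone reductase, fell by 2.32 ± 0.18. In these 3 genes replicate 3 was the highest COP1 siRNA array. In others replicate 3 was far below its group. COX7A2, a subunit of cytochrome c oxidase, read 3577, 3059.8 and 718 against 16533 to 17215 on the control arrays, and its log2 fold change of -3.03 ± 0.51 became -2.33 without replicate 3. TM4SF5, a four-span membrane protein, moved from -2.40 ± 0.65 (adjusted p = 0.049) to -1.49, TTR, the carrier of thyroid hormone and retinol, from -2.32 ± 0.49 to -1.66, and SLC51B, a subunit of the basolateral bile acid transporter, from -2.44 ± 0.43 to -1.87. ORM1, the acute phase protein orosomucoid, moved from -2.53 ± 0.42 to -1.97, and its near-identical neighbour ORM2 fell by 2.16, so the share of each is uncertain. LBHD1 had a log2 fold change of -2.81 ± 0.29 and NUPR1, a stress-induced regulator, of -2.53 ± 0.20. Of the 15 largest rises and 15 largest falls, COP1 included, 21 kept their call under every alternative setting that tested them, which was 19 for F3 and NUPR1 and 20 for the rest; CAPRIN1, COX7A2, MYOF, ORM1, SGK1, SLC51B, TAGLN, TM4SF5 and TTR lost it in some.

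**Figure D2:**
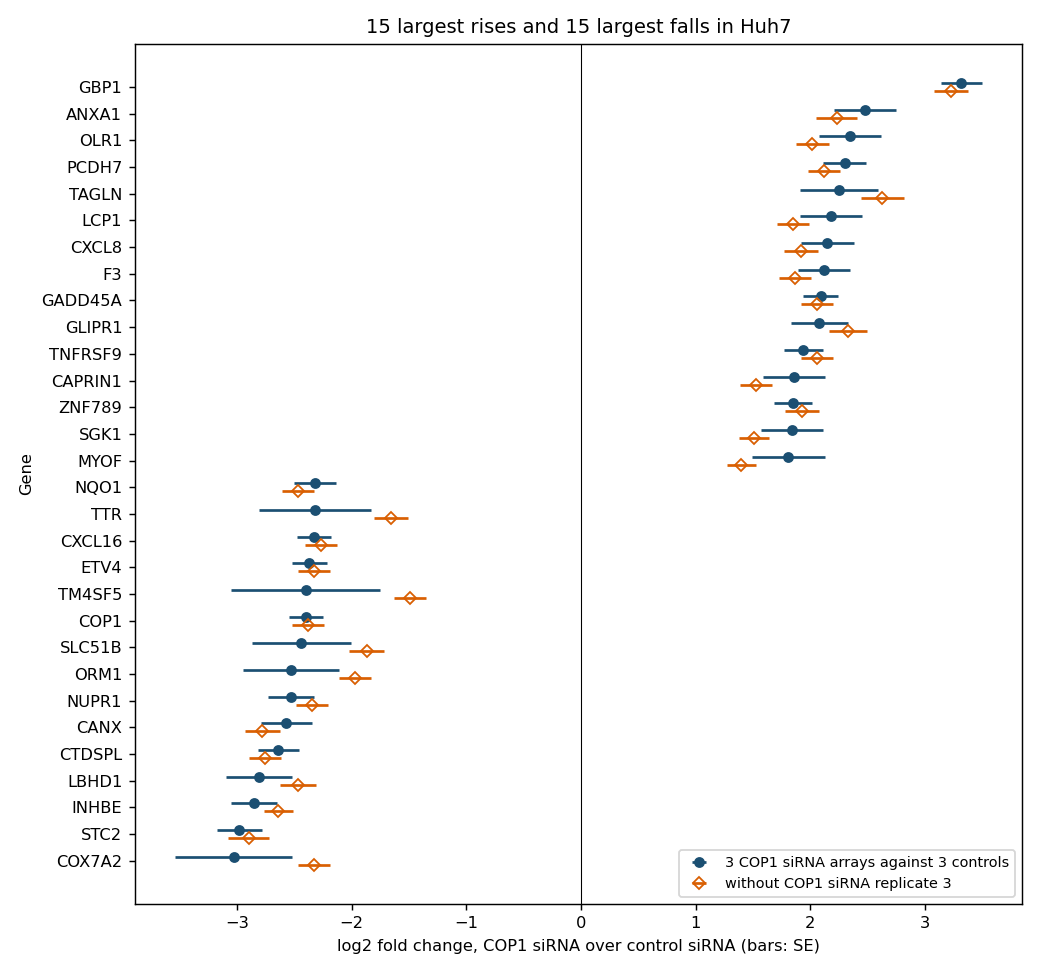
Log2 fold change (x axis, bars SE) of the 15 largest rises and 15 largest falls in Huh7 (y axis), filled with all 3 COP1 siRNA arrays and open without replicate 3. COX7A2, TM4SF5, TTR and SLC51B move towards 0 without replicate 3, while STC2, CTDSPL and COP1 hardly move.

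**Figure D3:**
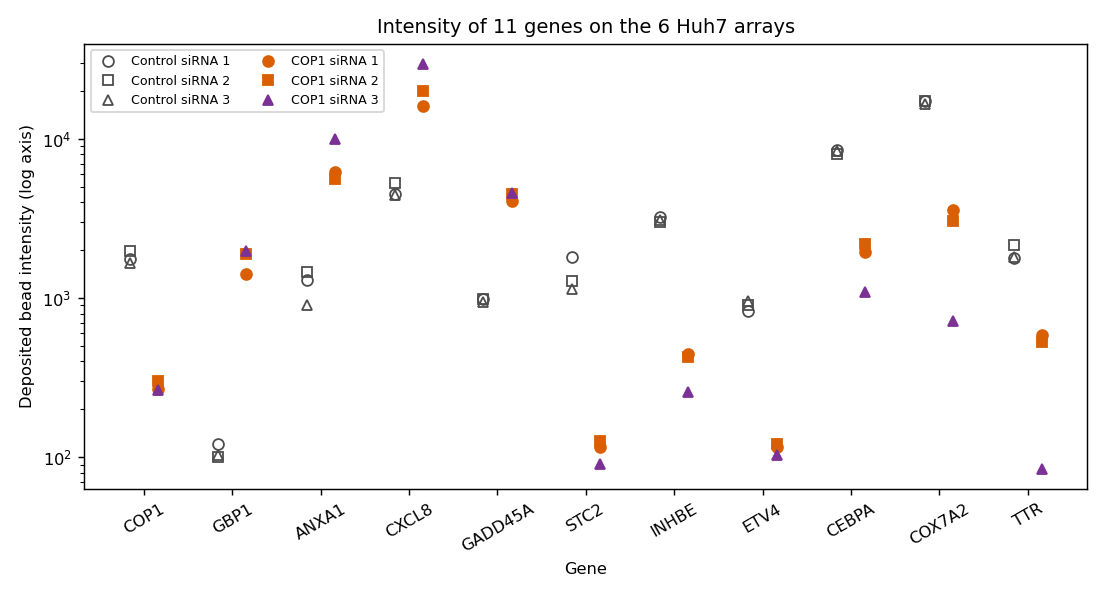
Deposited bead intensity (log axis) of 11 genes (x axis) on the 3 control siRNA arrays (open symbols) and the 3 COP1 siRNA arrays (filled, replicate 3 as a triangle). GBP1 lies at 1426 to 1967 after COP1 siRNA and 100.3 to 121 in controls, and replicate 3 lies far below its group for COX7A2 and TTR.

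Among genes of the COP1 complex and its adaptors, 18 were tested, 1 rose and 4 fell, COP1 included. That is 27.8%, against 12.3% of all features, and the median was -0.024. Without replicate 3, 3 rose and 6 fell, and without 1 control array or COP1 siRNA replicate 2, 0 rose and 2 fell. The Tribbles genes moved apart. TRIB1 read 3544, 4386 and 8676 after COP1 siRNA and 1893 to 2028 after control siRNA, a rise of 1.36 ± 0.31 (limma adjusted p = 0.028). TRIB3, a Tribbles gene that ATF4 induces, read 2993, 3049 and 2868 against 6987 to 8435, a log2 fold change of -1.35 ± 0.15 (adjusted p = 0.0029). STK40, a kinase-like COP1 binder, fell by 0.87 ± 0.23 and COPS7A, a signalosome subunit, by 0.80 ± 0.19. DET1, the adaptor to the cullin ligase, gave 0.19 (adjusted p = 0.43) and is given because of its role, after its value was seen.

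Of 14 transcripts whose proteins are known COP1 substrates, 2 rose and 3 fell (35.7%, against 12.3% of all features, median -0.45). Without replicate 3, when 30.4% of all features changed, 4 rose and 9 fell. With any 1 control array left out 1 rose and 2 fell, and without COP1 siRNA replicate 1, 2 rose and 5 fell. CEBPA, the C/EBP factor of hepatocyte and adipocyte differentiation, read 1956, 2193 and 1087 against 8106 to 8509 on the control arrays. All COP1 siRNA arrays were well below the controls, and the log2 fold change was -2.26 ± 0.25 (limma adjusted p = 0.0028). The ETS genes split: ETV4 fell, while ETS1 rose by 1.37 ± 0.21, from 55.1 to 82.3 on the control arrays to 245, 262 and 430, and ETS2 rose by 1.37 ± 0.18. ERBB3, a receptor tyrosine kinase, fell by 1.31 ± 0.27 on its main probe, while 2 others gave -0.53 (adjusted p = 0.17) and -0.62 (adjusted p = 0.091). JUN, named after its values were seen, read 2361, 1721 and 1029 against 1195, 932 and 1201, overlapping the controls in replicate 3 (log2 fold change 0.52, adjusted p = 0.25; 0.83 without replicate 3).

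Among PEA3 factors and genes that respond to MAPK signalling, 18 were tested, 0 rose and 4 fell (22.2%, against 12.3% of all features, median -0.28). Besides ETV4 these were the MAPK feedback inhibitors SPRY1, which fell by 1.28 ± 0.22, and SPRY4, by 0.72 ± 0.15, and the growth-factor-induced PHLDA1 (-1.26 ± 0.20). SPRY1 read 493, 602 and 898 against 1519 to 1831 in controls, with replicate 3 nearest to them. Without replicate 3, 2 of the 18 rose and 8 fell, without COP1 siRNA replicate 2, 0 and 2, and without 1 control array 0 and 1. Of 20 AP-1 and early growth response genes, 1 rose (5%; median 0.39): FOSB, an AP-1 subunit, read 213, 228 and 196 against 78.3 to 78.9 on the control arrays, a rise of 0.90 ± 0.15. Without replicate 3, when 30.4% of all features changed, 10 of the 20 rose and 3 fell. Of 24 p53 targets, 4 rose and 4 fell (33.3%; median 0.26). GADD45A rose as given above, while GDF15, a stress-induced cytokine, read 5318, 4187 and 1826 against 13525 to 14690.5, a log2 fold change of -2.00 ± 0.35. TP53INP1 fell by 1.08 ± 0.20, SESN2, a stress-induced inhibitor of mTORC1 signalling, by 0.92 ± 0.21 with 1 of 3 COP1 siRNA arrays above background, and CYFIP2 by 0.86 ± 0.18, with -0.54 on its other probe (adjusted p = 0.10), and without replicate 3, 9 of the 24 rose and 4 fell. Leaving out a control array left 1 or 2 that rose and 0 that fell, and without COP1 siRNA replicate 2, 1 rose and 1 fell.

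Among genes induced by the transcription factor ATF4 and genes of amino acid supply, 23 of 47 tested fell. When amino acids are short or the endoplasmic reticulum is stressed, translation of ATF4 rises, and it induces enzymes of serine and asparagine synthesis, amino acid transporters and transfer RNA synthetases. Of the 47, 0 rose and 24 were not called (48.9% changed, against 12.3% of all features), with a median log2 fold change of -0.77. The list's mean level, set against the mean of the controls, was -0.90, -0.90 and -0.85 on COP1 siRNA arrays 1 to 3. On the control arrays it was between -0.04 and 0.02. Replicate 3 did not stand apart in this mean, but it did in single members, lower in PHGDH and higher in ASNS. For 32 of the 47 all 3 COP1 siRNA arrays lay below all controls, and for 3 above, against 19% and 20.6% of all features. Without replicate 3, 32 fell and 1 rose; without COP1 siRNA replicate 2, 17 fell, and without control replicate 1, 2 or 3, 11, 11 and 10 fell.

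CBS, which makes cystathionine from homocysteine, read 587, 576 and 477 after COP1 siRNA and 2359, 2105 and 2613 after control siRNA, a log2 fold change of -1.97 ± 0.17 (limma adjusted p = 0.0012). PCK2, the mitochondrial phosphoenolpyruvate carboxykinase, read 747, 638 and 614 against 2464 to 2547 (-1.81 ± 0.15), and its other probes gave -0.95 and -0.51 (adjusted p = 0.086 for the latter). NUPR1 read 60.3, 59.0 and 17.5 against 555 to 644, with replicate 3 not above background. STC2 and INHBE, described above, are members too. Further members that fell, named after their values were seen, include PHGDH, the first enzyme of serine synthesis, which read 8272, 8120 and 5276 against 21478 to 23681 (-1.65 ± 0.21). ASNS, asparagine synthetase, read 5019, 5406 and 8073 against 14756 to 14868 (-1.28 ± 0.20), and the glutamine transporter gene SLC1A5 fell by 1.58 ± 0.18. The transcript of ATF4 itself differed by -0.084 on the log2 scale (adjusted p = 0.74).

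Promoter sequence was read for genes of this list because 23 members fell and 0 rose. The letters TGATGNAA, a composite C/EBP and ATF element, were searched on both strands from 250 bases before to 50 bases after each gene's start in the RefSeq promoters of GRCh38.p14. They were present in 4 of the 18 members that fell and had a promoter in the table (CHAC1, ASNS, AARS1 and MARS1), in 6 of 21 members that were not called, and in 1.74% of the 8083 promoters of tested genes and 3.67% of all 27305. The match starts 68 bases before the gene start in ASNS, 187 in AARS1 and 209 in CHAC1. The 250 bases before the start are shown for these 3 genes, 5′ to 3′ on the gene's strand, from chr7:97872409-97872658 on the minus strand, chr16:70289507-70289756 on the minus strand and chr15:40953221-40953470 on the plus strand. Capitals mark the match, which in AARS1 and CHAC1 lies on the opposite strand.
ASNS: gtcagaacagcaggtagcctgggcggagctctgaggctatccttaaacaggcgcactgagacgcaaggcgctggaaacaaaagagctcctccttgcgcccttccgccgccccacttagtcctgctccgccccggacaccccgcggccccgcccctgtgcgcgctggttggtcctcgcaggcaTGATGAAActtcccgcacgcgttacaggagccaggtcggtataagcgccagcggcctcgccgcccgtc
AARS1: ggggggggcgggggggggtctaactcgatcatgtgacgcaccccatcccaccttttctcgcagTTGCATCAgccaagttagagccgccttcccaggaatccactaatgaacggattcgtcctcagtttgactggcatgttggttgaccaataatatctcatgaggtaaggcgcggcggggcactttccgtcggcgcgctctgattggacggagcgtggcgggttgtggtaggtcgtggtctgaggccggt
CHAC1: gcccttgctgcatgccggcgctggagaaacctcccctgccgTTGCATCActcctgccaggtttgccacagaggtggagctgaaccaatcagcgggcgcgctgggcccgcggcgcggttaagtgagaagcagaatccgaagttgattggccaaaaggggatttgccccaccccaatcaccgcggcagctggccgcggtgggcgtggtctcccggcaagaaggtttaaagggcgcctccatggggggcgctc
AARS1, alanyl-tRNA synthetase, fell by 1.07 (adjusted p = 0.0071) and CHAC1, a glutathione-degrading enzyme, was above background on 0 COP1 siRNA arrays and on 3 controls (at least 1.54-fold lower, adjusted p = 0.026). STC2, CBS and PCK2 fell further and have no such letters in this window, and INHBE and NUPR1 were not matched in the table.

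Of 34 chaperones and export factors of the endoplasmic reticulum, 2 rose and 3 fell (14.7%, against 12.3% of all features; median -0.0020), and without replicate 3, 3 rose and 7 fell, when 30.4% of all features changed. Without 1 control array or COP1 siRNA replicate 2, 0 rose and 2 fell. CANX fell as above. SURF4, a cargo receptor between the endoplasmic reticulum and the Golgi, read 1171, 1090 and 1157 against 3809 to 4378 (-1.78 ± 0.15, limma adjusted p = 0.0012), an even fall on all 3 arrays. SEC24C, a COPII coat protein, fell by 0.70 ± 0.15. CRELD2, an endoplasmic reticulum protein of the disulfide isomerase kind, rose by 0.71 ± 0.18. SAR1B, the GTPase that starts the COPII coat, had a rise of 0.90 ± 0.18 by its brightest probe and of 0.59 by another, while the third gave -0.10 (adjusted p = 0.83).

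**Figure D4:**
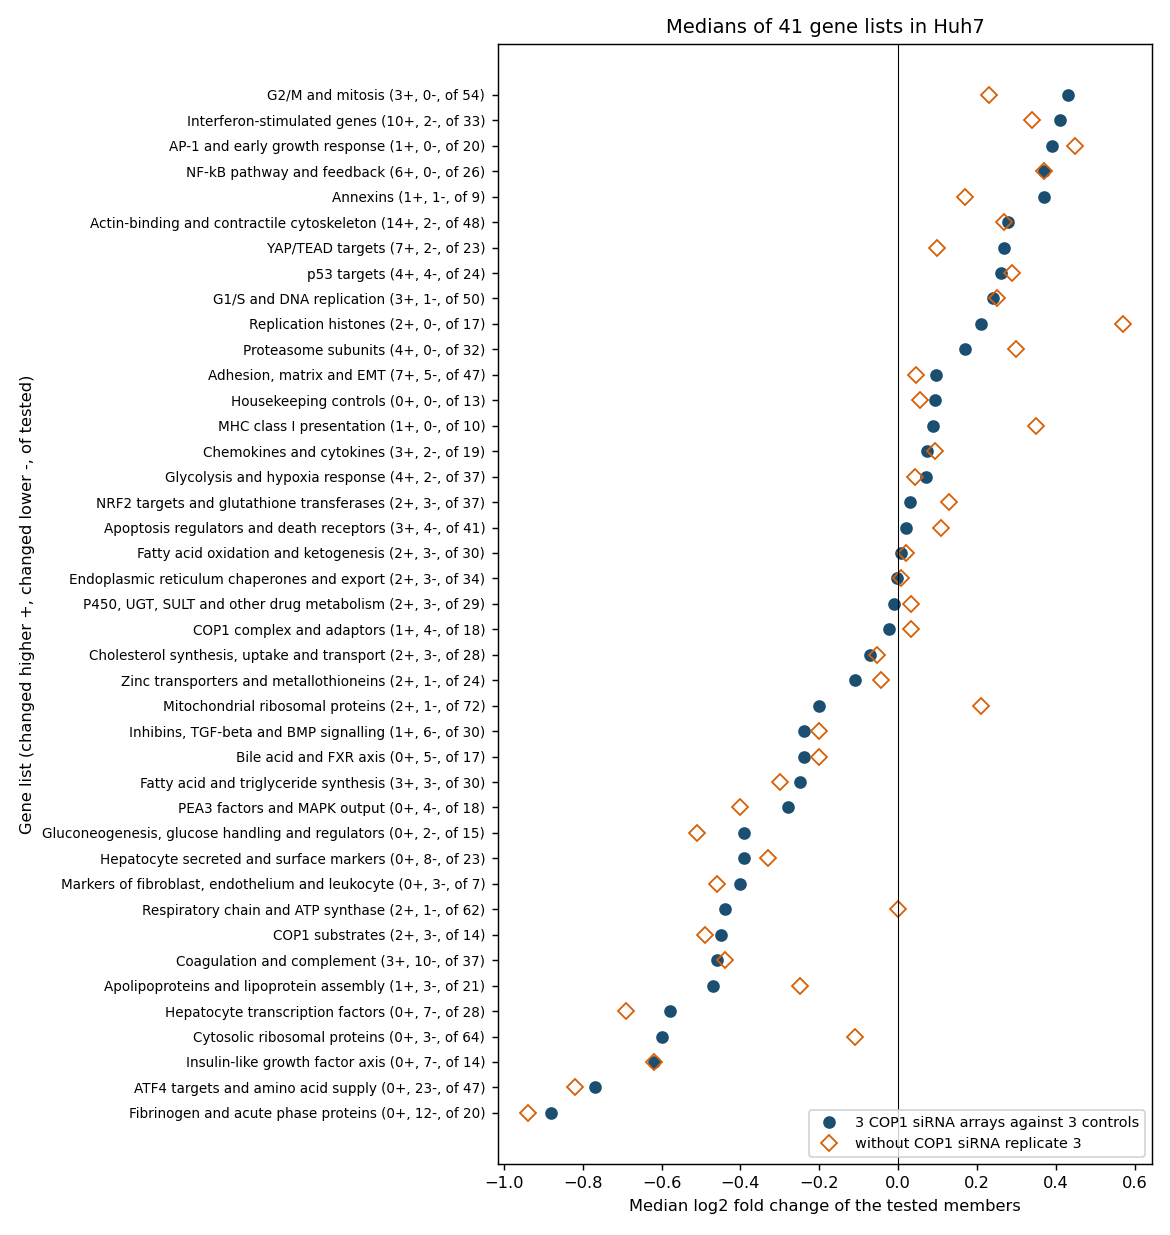
Median log2 fold change (x axis) of the tested members of 41 gene lists in Huh7 (y axis, with the numbers changed higher and lower), filled with all arrays and open without COP1 siRNA replicate 3. Fibrinogen and acute phase proteins lie lowest at -0.88 and ATF4 targets and amino acid supply at -0.77, and the cytosolic ribosomal proteins move from -0.60 to -0.11 without replicate 3.

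Among hepatocyte transcription factors and secreted proteins of the liver, members fell and hardly any rose. Of 28 hepatocyte transcription factors 7 fell and 0 rose (25%, against 12.3% of all features, median -0.58). Without replicate 3, when 30.4% of all features changed, 19 fell and 0 rose. The list's mean level was -0.74, -0.70 and -0.76 relative to the controls on the 3 COP1 siRNA arrays. FOXA3, a forkhead factor that opens liver enhancers, read 522, 397 and 180.2 against 1756 to 2202 (log2 fold change -2.25 ± 0.30, limma adjusted p = 0.0051). NR0B2, the bile-acid-induced corepressor SHP, read 159, 178 and 63.9 against 816 to 917 (-2.24 ± 0.24). FOXA2 fell by 0.92 ± 0.18 and CREB3L3, a membrane-bound factor of hepatic lipid genes, by 0.82 ± 0.16. Without control replicate 1, 2 or 3, 3 of the 28 fell, and without COP1 siRNA replicate 2, 4 fell.

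Of 20 fibrinogen and acute phase genes 12 fell and 0 rose, 60% changed, against 12.3% of all features, with a median of -0.88. The mean level of the list was -0.90, -0.82 and -1.13 relative to the controls on COP1 siRNA arrays 1 to 3. A2M, a broad protease inhibitor, read 140, 119 and 176 against 449 to 512 (-1.35 ± 0.17, limma adjusted p = 0.0038). FGL1, a liver-secreted fibrinogen-like protein, fell by 1.20 ± 0.18, SERPINA3, the inhibitor of chymotrypsin, by 1.06 ± 0.17, and CFB, complement factor B, by 1.27 ± 0.20 with 2 of 3 COP1 siRNA arrays above background. Without replicate 3, 16 of the 20 fell and 1 rose; without COP1 siRNA replicate 2, 8 fell, and without 1 control array, 1 or 2 fell. Of 23 hepatocyte secreted and surface markers 8 fell and 0 rose (34.8%; median -0.39), and without replicate 3, 10 fell. ASS1 of the urea cycle read 133, 140 and 65.6 against 543 to 589 (-1.81 ± 0.20), and its other probe gave -1.0 (limma adjusted p = 0.014). The asialoglycoprotein receptor genes fell together, ASGR1 by 1.71 ± 0.26 and ASGR2 by 1.39 ± 0.22. KNG1, kininogen, fell by 1.30 ± 0.22 and AHSG, the carrier fetuin-A, by 0.80 ± 0.15. Other liver products did not pass the test: ALB, albumin, read 29207, 31091 and 37186 against 31643 to 33071 (log2 fold change 0.0014, adjusted p = 1), and AFP, alpha-fetoprotein, differed by 0.13 on the log2 scale (adjusted p = 0.75); both were named after their values were seen.

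Of 37 coagulation and complement genes, 10 fell and 3 rose (35.1%, against 12.3% of all features, median -0.46). Without replicate 3, when 30.4% of all features changed, 19 fell and 5 rose. MASP1, a protease of the lectin pathway, read 40.2, 70.2 and 92.3 against 425 to 464 (-1.88 ± 0.18, limma adjusted p = 0.0017), with falls of 1.71 and 1.53 on 2 further probes. F7, the protease that tissue factor binds, fell by 1.47 ± 0.21 with 2 of 3 COP1 siRNA arrays above background. Another F7 probe had a log2 fold change of -0.7 (limma adjusted p = 0.037). PROZ fell by 1.16 ± 0.17, and TFPI, the inhibitor of the tissue factor pathway, by 1.28 ± 0.19, with both further TFPI probes lower as well. F3, tissue factor, moved the other way. Of 21 apolipoprotein and lipoprotein assembly genes, 3 fell and 1 rose (19%; median -0.47), and without replicate 3, 8 fell and 1 rose with a median of -0.25. PLA2G12B, required for large lipoprotein particles in mice, read 105, 131 and 84.8 against 400.5 to 600.5 (-1.60 ± 0.19). APOC2, the activator of lipoprotein lipase, fell by 1.48 ± 0.29, and APOC3, its inhibitor, differed by -1.26 ± 0.34 with 2 of 3 COP1 siRNA arrays above background (adjusted p = 0.049).

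In the bile acid and FXR axis 5 of 17 genes fell and 0 rose (29.4%, against 12.3% of all features, median -0.24). Without replicate 3, when 30.4% of all features changed, 7 fell and 1 rose. FGF19, the hormone that represses bile acid synthesis, read 179, 146 and 157 against 572 to 616 (-1.51 ± 0.15, limma adjusted p = 0.0018), and its liver receptor FGFR4 fell by 0.98 ± 0.19. ACOX2, the peroxisomal oxidase of bile acid side chains, fell by 1.33 ± 0.22, beside SLC51B and NR0B2. Of 14 genes of the insulin-like growth factor axis, 7 fell and 0 rose (50%; median -0.62), and without replicate 3, 9 fell and 1 rose. STC2 led these. IGF2, the fetal growth factor, read 213, 248 and 94.5 against 387 to 482 (-1.0 ± 0.25), its binding protein gene IGFBP4 fell by 0.75 ± 0.18 with 1 of 3 COP1 siRNA arrays above background, and the receptor gene IGF1R by 0.59 ± 0.14. H19, the noncoding RNA next to IGF2, was above background on 0 COP1 siRNA arrays (12.5 to 18.2) and read 71.0, 61.0 and 78.6 after control siRNA (at least 1.5-fold lower, limma adjusted p = 0.024). Of 30 inhibin, TGF-beta and BMP signalling genes, 6 fell and 1 rose (23.3%; median -0.24), or 11 and 3 without replicate 3. BMP4, a BMP ligand, read 480, 456 and 396 against 1038 to 1176 (-1.19 ± 0.15). SMAD6, an inhibitory SMAD that BMP induces, fell by 1.04 ± 0.20, HAMP, the iron hormone hepcidin that BMP signalling induces, had -1.25 ± 0.25 with 2 of 3 COP1 siRNA arrays above background, and FSTL3, an activin antagonist, had -1.0 ± 0.21. Without 1 control array, whichever it was, 2 members fell in the bile acid list, 1 in the insulin-like growth factor list and 2 in the inhibin list, and in the preceding lists 1 or 2 of the secreted and surface markers, 2 to 5 of the coagulation genes and 1 of the apolipoprotein genes.

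In the metabolic lists 13.3% to 20% of the members changed, against 12.3% of all features. Of 30 genes of fatty acid and triglyceride synthesis, 3 rose and 3 fell (20%; median -0.25), or 4 and 14 without replicate 3. FADS1, the delta-5 desaturase, read 456, 547 and 362 against 1634 to 1677 (-1.73 ± 0.18, limma adjusted p = 0.0020), FASN, fatty acid synthase, read 8025, 6973 and 9534 against 16739 to 19509 (-1.16 ± 0.17), and the elongase gene ELOVL6 fell by 1.10 ± 0.25. ACSL5, an acyl-CoA synthetase, rose by 1.05 ± 0.15 and LPIN1, a phosphatidate phosphatase, by 0.87 ± 0.19. Of 30 genes of fatty acid oxidation and ketogenesis, 2 rose and 3 fell (16.7%; median 0.0084), or 3 and 4 without replicate 3. ECI2 and ACOX3 rose by 0.95 ± 0.15 and 0.96 ± 0.17, with 0.60 on another ECI2 probe (adjusted p = 0.064), and the carnitine carrier gene SLC25A20 and the dehydrogenase gene ACADS fell by 0.77 and 0.67. Of 28 cholesterol genes 2 rose and 3 fell (17.9%; median -0.072), or 2 and 8 without replicate 3. NPC1, which exports cholesterol from lysosomes, rose by 0.90 ± 0.17 and MYLIP, which degrades the LDL receptor, by 0.98 ± 0.22, while SCARB1, the HDL receptor, fell by 0.79 ± 0.16. ABCG1 and LSS were lower on their main probes by 0.83 and 0.79 and did not pass on other probes above background (-0.19 and 0.019 for ABCG1, -0.36 and -0.41 for LSS).

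Of 15 genes of gluconeogenesis and glucose handling 2 fell and 0 rose (13.3%; median -0.39), PCK2 and PC, pyruvate carboxylase, which fell by 1.27 ± 0.19; without replicate 3, 8 fell. Of 37 glycolysis and hypoxia genes 4 rose and 2 fell (16.2%; median 0.071), or 8 and 6 without replicate 3. SLC2A1, the glucose transporter GLUT1, read 616, 456 and 518 against 177 to 254 (1.02 ± 0.18, limma adjusted p = 0.014), BHLHE40 rose by 0.89 ± 0.19 and the carbonic anhydrase gene CA12 by 0.80 ± 0.18, with 0.60 on another probe (adjusted p = 0.10), while LOX, lysyl oxidase, fell by 0.72 ± 0.16. Of 29 drug metabolism genes 2 rose and 3 fell (17.2%; median -0.011), or 4 and 6 without replicate 3. The acetyltransferase gene NAT1 and the monooxygenase gene FMO1 rose by 0.86 ± 0.17 and 1.01 ± 0.23. CYP4F12 and POR, the reductase that serves P450 enzymes, fell by 0.83 ± 0.19 and 0.77 ± 0.21, and CYP3A7 was above background on 0 COP1 siRNA arrays (10.2, -1.65 and 7.18 against 45.6 to 81.5, at least 1.45-fold lower). Of 37 NRF2 targets and glutathione transferases 2 rose and 3 fell (13.5%; median 0.029), or 8 and 5 without replicate 3. They moved apart: HMOX1, heme oxygenase 1, read 1727, 1388 and 834 against 321 to 349 (1.71 ± 0.25, adjusted p = 0.0071) and the aldo-keto reductase gene AKR1B10 rose by 1.32 ± 0.17, while NQO1 read 1250.3, 1319 and 1810.5 against 7252 to 7691. TALDO1, transaldolase, fell by 1.47 ± 0.22 and the glutathione peroxidase gene GPX2 by 1.69 ± 0.42 (-1.14 without replicate 3). Leaving out a control array, 0 members changed in the drug metabolism, cholesterol and fatty acid oxidation lists and 1 in the glycolysis list. There were 1 or 2 in the gluconeogenesis and fatty acid synthesis lists and 2 to 4 in the NRF2 list. Those fits called 170 to 202 of all 10831 features.

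Interferon-stimulated genes, which type I and II interferons induce through STAT and IRF factors, were higher for 10 of 33 tested and lower for 2. That is 36.4%, against 12.3% of all features, and the median was 0.41. The list's mean level was 0.45, 0.33 and 0.23 relative to the controls on the COP1 siRNA arrays. GBP1 led the rises. IFIT2, an RNA-binding antiviral protein, read 289, 378 and 406 against 114 to 159 (1.06 ± 0.18, limma adjusted p = 0.011). IFIT3, its partner, read 133, 111 and 91.3 against 12.9 to 34.3, with 2 of 3 control arrays above background (0.87 ± 0.17), and another probe gave 0.47 (adjusted p = 0.090). The 2 that fell were IFITM2 and IFITM3, close paralogs that block virus entry, whose probes may share signal: IFITM2 read 1071, 720 and 296 against 2237 to 2517 (-1.83 ± 0.37) and IFITM3, above background on 1 of 3 COP1 siRNA arrays, fell by 1.37 ± 0.29. Without replicate 3, 14 rose and 4 fell. Without control replicate 1, 2 or 3, or without COP1 siRNA replicate 2, GBP1 was the 1 member that rose and 0 fell, and without COP1 siRNA replicate 1, 6 rose and 2 fell.

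The promoters of these genes were searched in the same window on both strands for the core of the interferon-stimulated response element, which is GAAA, any 2 bases and GAAA again. It was present in 6 of the 8 raised members with a promoter in the table (MX1, IFIT1, IFIT3, IFIH1, GBP1 and LGALS3BP), in IFITM3, the 1 fallen member with one, in 11 of 20 members not called, and in 2.7% of tested genes' promoters and 3.65% of all. The 250 bases before the start are shown for 3 raised genes, from chr1:89065209-89065458 on the minus strand, chr10:89392373-89392622 on the plus strand and chr2:162318685-162318934 on the minus strand of GRCh38.p14, with matches on either strand in capitals.
GBP1: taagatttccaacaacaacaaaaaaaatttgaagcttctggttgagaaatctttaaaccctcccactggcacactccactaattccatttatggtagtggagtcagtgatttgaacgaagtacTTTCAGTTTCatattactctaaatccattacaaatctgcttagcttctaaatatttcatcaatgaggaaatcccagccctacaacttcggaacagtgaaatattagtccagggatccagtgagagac
IFIT1: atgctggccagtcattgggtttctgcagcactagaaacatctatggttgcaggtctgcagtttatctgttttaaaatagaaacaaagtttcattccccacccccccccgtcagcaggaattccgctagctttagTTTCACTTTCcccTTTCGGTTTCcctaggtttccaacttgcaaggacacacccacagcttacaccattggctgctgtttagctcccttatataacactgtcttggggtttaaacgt
IFIH1: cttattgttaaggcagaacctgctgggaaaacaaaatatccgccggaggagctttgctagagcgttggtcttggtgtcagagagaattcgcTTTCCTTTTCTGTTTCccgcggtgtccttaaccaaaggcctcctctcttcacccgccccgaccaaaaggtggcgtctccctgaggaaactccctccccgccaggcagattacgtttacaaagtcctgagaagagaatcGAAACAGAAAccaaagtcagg
IFIT1 read 122, 77.3 and 133 against 21 to 47.5, with 2 of 3 control arrays above background (0.76 ± 0.19) and IFIH1, the cytosolic RNA sensor MDA5, read 194, 253 and 495 against 37.3 to 104 (1.40 ± 0.30). In IFIH1 2 of its 3 matches overlap. The AP-1 letters TGANTCA were in 0 of 15 promoters of AP-1 list members not called and not in that of FOSB, and in 4.49% of those of tested genes.

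Of 10 MHC class I presentation genes 1 rose (10%; median 0.088), TAP1, the peptide transporter, which read 539, 555 and 485 against 129.0 to 149 (1.5 ± 0.15, limma adjusted p = 0.0018); without replicate 3, 5 rose. Of 26 NF-kB pathway genes 6 rose and 0 fell (23.1%, against 12.3% of all features, median 0.37). The list means were 0.42, 0.34 and 0.41 on the COP1 siRNA arrays. TNFAIP3, the NF-kB inhibitor A20, read 505, 598 and 911 against 139 to 163 (1.70 ± 0.22, adjusted p = 0.0043). NFKB1, the p105 and p50 subunit, read 5027, 5045 and 7530.3 against 2826 to 3142 (0.92 ± 0.20), TNIP1, a partner of A20, rose by 0.74 ± 0.17, TNFAIP8 by 0.82 ± 0.19 and CD83 by 0.74 ± 0.16 with 1 of 3 control arrays above background. Without replicate 3, 10 rose and 1 fell, and without 1 control array or COP1 siRNA replicate 2, TNFAIP3 was the 1 that rose. Of 19 chemokines and cytokines 3 rose and 2 fell (26.3%; median 0.073), or 4 and 2 without replicate 3 and 1 or 2 and 1 without a control array. CXCL10, an interferon-induced chemokine, read 186, 202.5 and 135 against 11, 36.3 and 44.5 (1.24 ± 0.19), and CXCL6, which binds the same receptors as CXCL8, rose by 0.94 ± 0.20. CXCL16 and GDF15 fell.

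More genes of the actin cytoskeleton rose than fell. Of 48 actin-binding and contractile genes 14 rose and 2 fell (33.3%, against 12.3% of all features, median 0.28). The list means were 0.45, 0.39 and 0.34 on the COP1 siRNA arrays. CNN2, calponin 2, read 8509, 7001 and 8320.5 against 2762 to 2978 (1.43 ± 0.16, limma adjusted p = 0.0025), an even rise. MYL9, the regulatory myosin light chain, read 276, 209 and 158 against 14.8, 32.1 and 30.1, with 2 of 3 controls above background (1.5 ± 0.19). ACTG2, smooth muscle gamma actin, rose by 1.23 ± 0.20 with 2 of 3 control arrays above background, CALD1, caldesmon, by 0.93 ± 0.16, and TAGLN by 2.25, with 1.48 on a second probe. Without replicate 3, 22 of the 48 rose and 2 fell, without COP1 siRNA replicate 2, 8 rose, and without control replicate 1, 2 or 3, 3, 3 and 2 rose. Of 23 YAP/TEAD targets 7 rose and 2 fell (39.1%; median 0.27), but the list mean was 0.34 and 0.33 on replicates 1 and 2 and 0.70 on replicate 3, and the median was 0.10 without replicate 3, where 9 rose and 4 fell. Without 1 control array 2 or 3 rose, and without COP1 siRNA replicate 2, 5. NUAK2, a kinase that YAP induces, read 1244, 1148 and 1133 against 365 to 606 (1.20 ± 0.19), and TEAD2, a DNA-binding partner of YAP, fell by 0.91 ± 0.15. Of 47 adhesion, matrix and EMT genes 7 rose and 5 fell (25.5%, median 0.096), or 13 and 8 without replicate 3. Without COP1 siRNA replicate 2 it was 3 and 0, and without any 1 control array 0 and 0. Those fits called 396 and 170 to 202 of all 10831 features. CDH2, N-cadherin, read 3706, 3906 and 6463 against 1625 to 2071 (1.33 ± 0.24), and CD44, the hyaluronan receptor, read 253, 241 and 559 against 57.0 to 78.5 (1.47 ± 0.27). The metalloprotease inhibitor genes TIMP3 and TIMP2 rose by 0.87 ± 0.15 and 1.02 ± 0.19, with 0.41 on another TIMP2 probe (adjusted p = 0.31), and the laminin gene LAMA5 fell by 0.92 ± 0.17. Of 9 annexins 1 rose, ANXA1, and 1 fell, ANXA13, which read 141, 203 and 122.5 against 784 to 967 (22.2%; median 0.37); without replicate 3 the counts were the same and the median was 0.17.

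Of the cell cycle lists 5.56% to 11.8% of the members changed, against 12.3% of all features. Of 54 genes of G2/M and mitosis, 3 were called higher and 0 lower (5.56%; median 0.43), and the list mean was 0.16, 0.31 and 0.60 on the 3 COP1 siRNA arrays, highest on replicate 3. KIF11, the kinesin that separates spindle poles, read 322, 402 and 796 against 120.0 to 188 (1.28 ± 0.29, limma adjusted p = 0.029), the cyclin gene CCNB1 rose by 0.86 ± 0.21 and CDCA5, a cohesin regulator, by 0.66 ± 0.16. Without replicate 3, when 30.4% of all features changed, 16 rose and 2 fell with a median of 0.23. Without replicate 1, 14 rose and 1 fell. Of 50 G1/S and DNA replication genes 3 rose and 1 fell (8%; median 0.24), or 14 and 2 without replicate 3. POLA2, a subunit of DNA polymerase alpha, rose by 0.72 ± 0.16 and TYMS, thymidylate synthase, by 0.76 ± 0.18. PCNA, the sliding clamp, rose by 0.67 on its main probe, with 0.042 and -0.0081 on 2 others, and MCM10, a replication initiation factor, fell by 0.73 on one probe and gave -0.30 on another (adjusted p = 0.31). Of 17 genes in the replication histone list 2 rose (11.8%, median 0.21), with list means of 0.53, 0.33 and -0.30 on the 3 arrays. H2AC6 rose by 0.81 ± 0.17. H3-3B, a replacement histone gene that the list includes, rose by 1.23 ± 0.26. Without replicate 3, 10 of the 17 rose and 1 fell. Without 1 control array, or without COP1 siRNA replicate 2, limma called 0 members of these 3 lists. The same held for the AP-1 and proteasome lists. Those fits called 170 to 202 and 396 of all 10831 features, so few calls were left for any list.

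Of 41 apoptosis regulators 3 rose and 4 fell (17.1%, against 12.3% of all features, median 0.021). It was 8 and 5 without replicate 3, when 30.4% of all features changed. Without COP1 siRNA replicate 2 it was 0 and 2, and without a control array 0 and at most 1. FADD, the adaptor of death receptors, read 399, 313 and 210.3 against 844 to 1098 (-1.44 ± 0.22, limma adjusted p = 0.0083), the BH3-only gene BMF fell by 1.39 ± 0.22 and the death receptor gene TNFRSF21 by 1.28 ± 0.25, while the caspase gene CASP6 rose by 0.83 ± 0.17, with 0.31 on another probe (adjusted p = 0.33). CASP4 fell by 0.92 on its main probe, with -0.16 on another (adjusted p = 0.52). Of 32 proteasome subunits 4 rose and 0 fell (12.5%; median 0.17), or 13 and 1 without replicate 3, with list means of 0.29, 0.33 and -0.06. PSMD12 and PSMD1 of the regulatory particle rose by 1.17 ± 0.24 and 1.00 ± 0.22, PSMC2 by 0.76 ± 0.20, and the ubiquitin receptor gene ADRM1 by 0.78 ± 0.20, with 0.56 on its other probe (adjusted p = 0.26). Of 24 zinc transporters and metallothioneins 2 rose and 1 fell (12.5%; median -0.11), or 4 and 2 without replicate 3 and 0 and 0 without a control array. SLC30A1, which exports zinc from the cell, read 547, 798 and 1068 against 209 to 253 (1.45 ± 0.23), SLC30A5, a transporter into the secretory pathway, rose by 0.66 ± 0.16, and SLC39A5 was above background on 0 COP1 siRNA arrays and on 3 of 3 controls (at least 1.49-fold lower).

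The array that stood apart differed most in genes of ribosomes and mitochondria. The mean level of 64 cytosolic ribosomal protein genes was -0.11, -0.17 and -1.44 relative to the controls on COP1 siRNA arrays 1 to 3. It was 0.05, -0.04 and -1.34 for 62 respiratory chain and ATP synthase genes and 0.20, 0.18 and -0.86 for 72 mitochondrial ribosomal protein genes. In all 3 lists replicates 1 and 2 lay close to the controls or above them, and replicate 3 lay far below. Between 4.17% and 4.84% of the members changed, against 12.3% of all features: 0 rose and 3 fell among cytosolic ribosomal proteins (4.69%; median -0.60, or -0.11 without replicate 3, where 1 rose and 5 fell), 2 and 1 in the respiratory chain (4.84%; median -0.44, or -0.00038 without replicate 3, where 5 rose and 4 fell), and 2 and 1 among mitochondrial ribosomal proteins (4.17%; median -0.20, or 0.21 without replicate 3, where 20 rose and 3 fell). Of all features 30.4% changed without replicate 3. With a control array left out, when 170 to 202 of all 10831 features were called, 0 members changed in the respiratory chain list. In each of the other lists 1 fell. Single members were low on every array. RPL28 read 412, 369 and 214 against 1180.3 to 1465 (-1.83 ± 0.22, limma adjusted p = 0.0038), MRPL18 read 357, 496 and 188 against 1378 to 1652 (-1.97 ± 0.27), and RPL13A fell by 1.07 ± 0.21. RPL13 fell by 1.76 ± 0.42 on its main probe, while another gave 0.19 (adjusted p = 0.76). MRPS14 and MRPS30 rose by 0.67 and 0.54, and SDHD and the cytochrome c gene CYCS, both of the respiratory chain list, rose by 0.77 and 0.58.

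Replicate 3 was also apart in single genes, both of these kinds, such as MRPL23 of the mitochondrial ribosome, and of others. Of all named genes, TTC3, PROM1, CCT6A, SNX6, SDCBP and ATAD1 were those on which it lay highest above replicates 1 and 2, and MRPL23, MT1X, TM4SF5, TMEM256, RPP21 and VAMP5 those on which it lay lowest. TTC3 read 2010.0, 1522 and 7140 against 1727 to 2594, and VAMP5 read 3889, 3417 and 524 against 3010 to 3632. In both, replicates 1 and 2 lay within or near the controls and replicate 3 did not. Split by the length of the gene on the genome, a split chosen after the data were seen, the 3238 shortest genes had a median of -0.37 on replicate 3, the middle ones 0.14 and the longest 0.26, against -0.0015 to 0.074 for the shortest and middle parts and -0.013 and 0.022 for the longest on replicates 1 and 2. The part of gene length in the differences of replicate 3 was not tested.

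**Figure D5:**
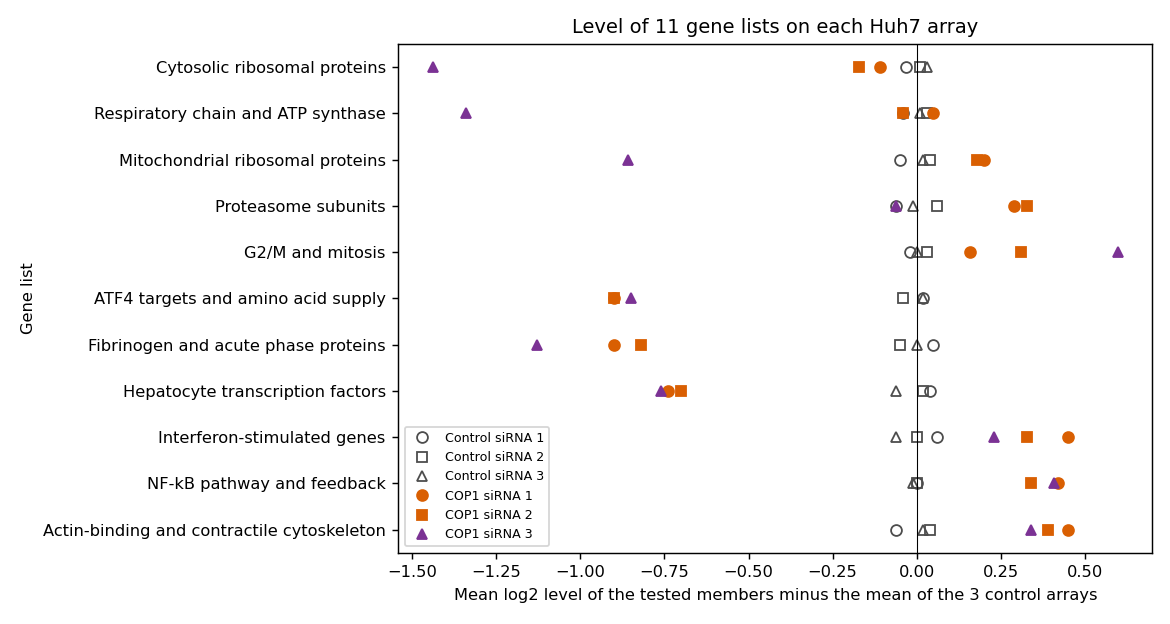
Mean log2 level of 11 gene lists (y axis) on each of the 6 Huh7 arrays minus the mean of the 3 control arrays (x axis), with controls open and COP1 siRNA arrays filled. Replicate 3 (triangle) lies at -1.44 for cytosolic ribosomal proteins, away from -0.11 and -0.17, but at -0.85 beside -0.90 and -0.90 for ATF4 targets.

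Of 13 housekeeping controls 0 changed by limma (0%, against 12.3% of all features, median 0.094), and without replicate 3, 1 fell. HPRT1 and YWHAZ differed most, at -0.71 (limma adjusted p = 0.059) and 0.64 (adjusted p = 0.22). Markers of other cell types ranged from background to well above it, and their part in the results was not tested. Of 8 fibroblast markers 0 were above background on all 6 arrays and 3, PDGFRB, THY1 and FAP, on none, with a summed intensity of 152 to 192 after COP1 siRNA and 122 to 205 after control siRNA. Of 6 endothelial markers PECAM1 was above background on all arrays and VWF and CLDN5 on none (sum 90.8 to 122 and 30 to 63.2). Of 9 leukocyte markers CD14 and CD68 were above background on all 6 arrays, and PTPRC, CSF1R and ITGAM lay at background on all arrays (sum 439 to 974 and 2230 to 2600). Among 7 such markers tested 3 fell and 0 rose (42.9%; median -0.40), or 4 and 1 without replicate 3 and 0 and 0 without a control array: CD14, which hepatocytes also make, read 451, 546 and 163 against 1595 to 1906 (-2.08 ± 0.34, limma adjusted p = 0.0096), and CD3D and LYZ, each above background on 2 of 3 COP1 siRNA arrays, fell by 1.32 ± 0.30 and 0.90 ± 0.21. The summed hepatocyte markers were 94900 to 99400 after COP1 siRNA and 119000 to 123000 after control siRNA. In bulk RNA, fewer cells of a kind and less RNA per cell cannot be told apart.

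Whether the response differed from that of the other lines was tested for COP1 and the 5 largest rises and falls besides it, as the Huh7 log2 fold change minus the mean of those in HepG2 and Hep3B (4 COP1 siRNA and 4 control arrays each), in a fit of all 22 arrays with a weight per line. Over all features 1173 differed (10.8%). The 10 genes besides COP1 were chosen for large changes in Huh7, which favours a larger response there, so their values are a description. The fall of COP1 differed by -0.49 ± 0.22 (limma adjusted p = 0.16), with -1.78 in HepG2 and -2.05 in Hep3B. GBP1 rose by 0.60 in HepG2, where it was above background on 4 of 8 arrays, and 0.36 in Hep3B, and the difference was 2.83 ± 0.28 (adjusted p = 1.5e-07). STC2 had -0.57 and 0.16 there, a difference of -2.78 ± 0.20 (adjusted p = 2.5e-10). INHBE had -0.17 and -0.24 (difference -2.65 ± 0.28), but was above background on 1 of 8 Hep3B arrays. COX7A2 fell in the other lines as well (-2.17 and -1.53), and its difference between lines, -1.18 ± 0.45, missed the threshold (adjusted p = 0.087). It was -0.48 without COP1 siRNA replicate 3 (adjusted p = 0.19) and passed in the fit without weights (adjusted p = 0.034).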

How the data were processed

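The deposited values are bead intensities on a linear scale, made with GenomeStudio 2009.1 per the submitters' processing notes. Of all values 23.7% are below 0 and the arrays share nearly one distribution, so background had been subtracted and the arrays normalized; their method is not given in the sources used here. Another 44 columns, of a table without normalization, match no sample label and were not used. Intensities were corrected with normexp (offset 50), put on the log2 scale and quantile normalized over 22 arrays with limma 3.58.1 in R 4.3.3. Of 24526 probes, 12593 exceeded 21.8 on at least 3 of the 6 Huh7 arrays. This threshold is the 0.98 quantile of the sizes of negative values over the 22 arrays. The 12593 probes gave 10831 features, each gene by its brightest probe. The 6 arrays were fitted with lmFit and eBayes, with 4 residual and 4.14 prior degrees of freedom, on these arrays alone, and the method was tested on simulated data. An exact permutation test of 3 arrays against 3 cannot go below p = 0.1.

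A symbol was given for 21834 probes and none for 2692; 21813 were matched by gene ID to RefSeq GRCh38.p14. Coordinates and promoters are RefSeq's. Named genes are COP1, the 15 largest rises and falls without overlap and with a log2 fold change of at least 1 also without COP1 siRNA replicate 3, up to 5 changed members per list by adjusted p (or 2 members where none changed), and the 6 genes each way on which replicate 3 lay farthest from replicates 1 and 2. The members and the lists were chosen with earlier results of these data known. Same-numbered arrays had deviations from their group's mean correlated at -0.33, 0 and -0.33. The deviations of a group sum to 0, so these values cannot decide whether numbers pair arrays. Alternatives covered background correction, offset, normalization, filter, weights, spread, threshold, probe choice and each array left out.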

Additional observations from a re-analysis of the deposited data

Results flagged for a closer look

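The response of 9 genes in Huh7 differed from the mean of those in HepG2 and Hep3B, by limma with Benjamini-Hochberg adjustment over all features in the fit of 22 arrays. These genes were chosen as among the largest changes in Huh7, which favours a larger response there, so the differences are a description. In log2 fold change they were 2.83 for GBP1, 2.04 for ANXA1, 2.28 for OLR1, 2.36 for PCDH7, 1.75 for TAGLN, -2.78 for STC2, -2.65 for INHBE, -0.96 for LBHD1 and -1.87 for CTDSPL. OLR1 was above background on 2 of 8 HepG2 and 0 of 8 Hep3B arrays, and PCDH7 on 0 and 1, so their log2 fold changes there rest on dim probes. LBHD1 fell in all 3 lines, with log2 fold changes of -1.88 in HepG2 and -1.81 in Hep3B, and its difference had an adjusted p of 0.049.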

How the results depend on the processing

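The count of 1332 changed features ran from 170 to 3289 when 1 array was left out: 1429, 396 and 3289 without COP1 siRNA replicates 1, 2 and 3, and 189, 202 and 170 without control replicates 1, 2 and 3. It was 6054 with array weights, whose estimation did not converge, 4459 with the spread shared over 22 arrays, and 281 at an adjusted p under 0.01. With the replicate block it was 271. Whether the numbers pair the arrays is not known, so this is given as a count only. The other 10 alternatives gave 1124 to 1500. The share of higher calls was 42.9%, 52.5% with array weights, 52.6% with the shared spread, 25.7% to 26.5% without a control array, 32.1% without COP1 siRNA replicate 2, 28% with the block and 29.2% at the stricter threshold. COP1 passed under all 20 alternatives, with log2 fold changes of -2.52 to -2.25 and adjusted p of 6.8e-13 to 0.015. Of 180 named genes, 119, 113 and 120 lost their call without control replicates 1, 2 and 3, 85 without COP1 siRNA replicate 2, 92 with the block and 98 at the stricter threshold. Among those called in the main fit 0 changed sign. Some that were not called there did, such as TTC3 (log2 fold changes of -0.49 to 0.79) and ATAD1 (-0.12 to 0.7). The count of features differing between lines was 1173, 2808 without weights and 2214 without COP1 siRNA replicate 3, where the difference for COP1 passed too (adjusted p = 0.015 and 0.046). That for COX7A2 passed without weights (adjusted p = 0.034). The causes were not tested. A beadchip block and the table without normalization were not run, because neither could be tied to samples. Probes near 21.8 give bounds or understated folds.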
